A study of Mus musculus with 8 samples.

Results

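The genes described are 8 forkhead transcription factors of the Foxc, Foxf, Foxl and Foxp groups: Foxc1, Foxc2, Foxf1a (named Foxf1 in RefSeq), Foxf2, Foxl1, Foxp1, Foxp2 and Foxp4. Every probe of these genes was taken by the gene name or accession on the array, which gave 13 of 55681 probes and 8 of 24291 genes tested. They were measured in microdissected cardiac outflow tracts of E10.5 mouse embryos, the part of the heart through which blood leaves it, on one-colour Agilent arrays. There were 4 pools from Raldh2-/- embryos, called knockouts 1, 2, 3 and 7, and 4 from wild type embryos, called wild types 1, 2, 5 and 7, with 4 tracts in each pool, and both groups are called rescued. Raldh2, now named Aldh1a2, makes retinoic acid from retinaldehyde. In both groups the food of the dams held all-trans-retinoic acid at 0.1 mg/g from E7.5 to E8.5, so the controls carry the same treatment, and the labels describe the wild type animals as littermates. The comparison asks how expression differs in the outflow tract when the embryo's own synthesis is missing after an early supply from the dam.

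Forkhead proteins bind DNA through a winged-helix domain. Foxc1 and Foxc2 act in mesoderm, neural crest and endothelium and are required with some redundancy for the outflow tract and the aortic arch arteries. Foxf1a, Foxf2 and Foxl1 mark mesenchyme that lies next to endoderm and answers to hedgehog signals from it. Foxp1, Foxp2 and Foxp4 are mainly repressors that pair with each other, and Foxp1 is needed for cushion and myocardial development.

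The members of the first groups lie in gene clusters, and their place in the genome sets which of them are neighbours. On chromosome 8 the order in RefSeq is Fendrr, Foxf1, Mthfsd, Foxc2 and Foxl1. The probe of Foxf1a (chr8:123610681-123610740, mm9) lay 31.95 kb from that of Foxc2 (chr8:123642693-123642752), which lay 11.65 kb from that of Foxl1 (chr8:123654402-123654461). On chromosome 13 Foxq1, Foxf2, Foxc1 and Gmds follow each other among the protein-coding genes. There the probe of Foxf2 (chr13:31723139-31723198) lay 179.2 kb from that of Foxc1 (chr13:31902423-31902482) and 70.87 kb from that of Foxq1. Foxp1 and Foxp2 lie on chromosome 6 and Foxp4 on chromosome 17.

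Every array probe has 60 bases, and 4 of the 13 are shown because they tell what part of a transcript was read. The Foxf1a probe is the only one for that gene, and it holds no stop codon in any of its 3 frames. One Foxp1 probe is spread over 4338 bases of chromosome 6 (chr6:98885382-98889719), so that it joins separate stretches of the genome, and one Foxp2 probe is spread over 1172 bases in the same way (chr6:15363873-15365044). Another Foxp1 probe (chr6:98880084-98880143) has a frame that runs open to a stop codon in its last 3 bases, which are in capitals. The sequences are those of the deposited array files.
Foxf1a: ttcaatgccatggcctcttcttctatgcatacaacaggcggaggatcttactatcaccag
Foxp1, spread probe: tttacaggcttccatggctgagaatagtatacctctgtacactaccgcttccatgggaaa
Foxp1, stop codon probe: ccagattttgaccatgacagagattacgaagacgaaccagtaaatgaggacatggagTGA
Foxp2, spread probe: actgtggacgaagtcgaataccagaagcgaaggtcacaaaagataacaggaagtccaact

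Values are log2 processed signals relative to the array's 75th percentile, called the log2 signal here. Differences are knockout minus wild type, from limma. P-values were adjusted by the Benjamini-Hochberg method across every gene tested, with 0.05 as the threshold. One array, that of wild type pool 1, differed from the rest. On it 94.7% of spots were well above background, against 53.3% to 63.2% on the other 7 arrays, and its median correlation with the others over probes was 0.682, against 0.967 to 0.985 among them. Each result is therefore given over 8 arrays and over the 7 without that pool. The knockout arrays filled row 1 of the slide and the wild type arrays row 2, which means that slide row and genotype cannot be told apart. Nothing in the labels says that pools of a group came from separate litters, so the p-values measure the spread between these pools. In such pools, fewer cells of a type and less RNA per cell cannot be told apart.

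The targeted gene was read first. Aldh1a2 had a log2 signal of 2.02, 2.01, 1.87 and 0.059 in knockouts 1, 2, 3 and 7, against 1.92, 3.21, 2.98 and 3.65 in wild types 1, 2, 5 and 7. Every knockout pool was below wild type pools 2, 5 and 7, but wild type pool 1 lay among the knockouts. The exact two-sided permutation p was 0.0857, and 0.0286 without wild type pool 1, the smallest that 35 assignments can give. In the limma fits the log2 fold change was -1.45 ± 0.55 (SE; limma adjusted p = 0.735) over 8 arrays. Over 7 arrays it was -1.79 ± 0.50 (limma adjusted p = 0.364), so Aldh1a2 did not pass the threshold in either. Whether the probe lies in the deleted part of the gene was not looked up, so its signal in knockout pools checks the labels only in part.

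None of the 8 forkhead genes passed the threshold in either fit, and none had groups that did not overlap. Over all genes, limma called 0% over 8 arrays and 0% over 7, and the groups did not overlap for 5.49% and 11.4% of genes. An unadjusted p under 0.05 was held by 1.78% of genes over 8 arrays, 433 in number, and by 10.6% over 7 arrays, 2507 in number, again with none of the 8. With limma's array weights, which gave wild type pool 1 a weight of 0.0171, 8 genes passed (0.0329%), none of them among the 8. The median log2 fold change of the 8 genes was 0.61 over 8 arrays, with 6 positive and 2 negative, beside 0.13 over all genes. Over 7 arrays it was 0.27, with 8 positive, beside 0.052 over all genes. In the values as measured, wild type pool 7 was the lowest of these arrays for each of the 8 genes. Its array had the fewest spots well above background, 53.3%. With that pool left out as well, Foxc2, Foxl1 and Foxp4 were at -0.069, -0.27 and -0.12. Foxc1, Foxf1a, Foxp1 and Foxp2 were then at 0.054, 0.065, 0.13 and 0.046, and Foxf2 at 0.61. Of all genes 13860 of 24291 were positive over 8 arrays and 14030 of 23668 over 7, and every count of positive genes below stands beside these. Scaling to the array median over 7 arrays turned Foxc2, Foxp1 and Foxp4 negative, at -0.18, -0.042 and -0.15. Quantile normalization turned Foxc2 to -0.0021 and normexp background correction turned Foxf1a to -0.052.

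**Figure D1:**
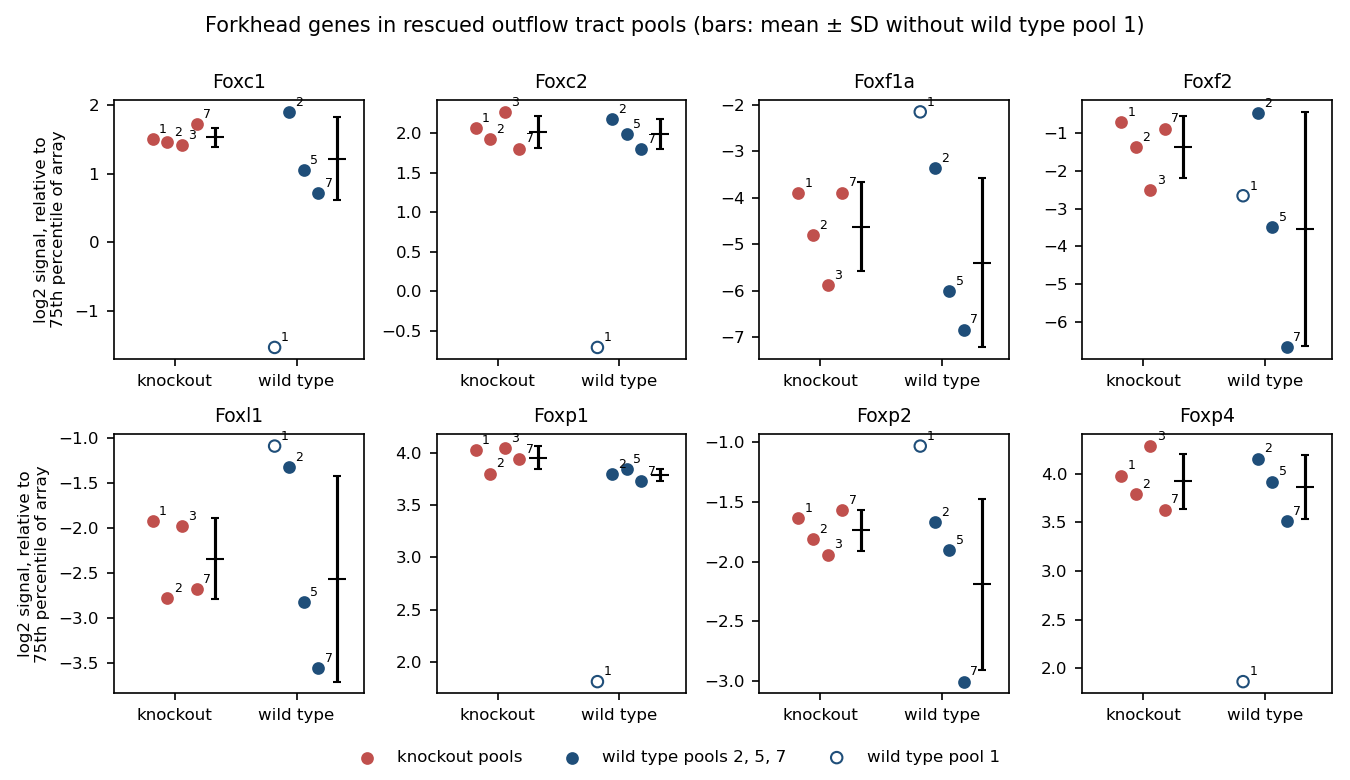
Log2 signal of the 8 forkhead genes (vertical axes, each with its own range) in knockout pools (red) and wild type pools (blue, pool numbers beside the points), with wild type pool 1 hollow; bars are the mean and SD without that pool. The groups overlap for every gene, and the wild type pools of Foxf2 reach from -6.68 to -0.45.

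Of the genes for the Foxc pair, Foxc2 was nearly level over 7 pools and Foxc1 was not. The log2 signal of Foxc1, a regulator of mesoderm and neural crest, was 1.51, 1.47, 1.42 and 1.73 in knockouts 1, 2, 3 and 7, against -1.53, 1.90, 1.05 and 0.72 in wild types 1, 2, 5 and 7. The 4 knockout pools lay close together and between the wild type pools, of which pool 2 was the highest of all 8 and pools 5 and 7 were lower than every knockout. The knockout mean was 1.53 ± 0.14 (SD, n = 4) and the wild type mean 0.53 ± 1.47 (SD, n = 4), or 1.22 ± 0.61 (SD, n = 3) without wild type pool 1. The log2 fold change was 1.00 ± 0.65 (SE; limma adjusted p = 0.735) over 8 arrays and 0.31 ± 0.27 (limma adjusted p = 0.693) over 7. Its 95% interval over 7 arrays ran from -0.32 to 0.94. The value was 0.054 without wild type pool 7 as well and 0.65 without wild type pool 2 in its place (limma adjusted p = 0.978 and 0.352).

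Foxc2, which also acts in lymphatic and aortic arch development, had a log2 signal of 2.06, 1.92, 2.27 and 1.80 in knockouts 1, 2, 3 and 7, against -0.71, 2.18, 1.99 and 1.80 in wild types 1, 2, 5 and 7. Apart from wild type pool 1 the pools of both groups covered the same stretch. The highest of these 7 was 1.39-fold above the lowest. For Foxc2 limma gave a log2 fold change of 0.70 ± 0.61 (limma adjusted p = 0.735) over 8 arrays and 0.027 ± 0.149 (limma adjusted p = 0.957) over 7, with an interval from -0.32 to 0.38. It turned to -0.058 without knockout pool 3 as well and to -0.069 without wild type pool 7 in its place.

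Of the 8 genes, Foxf2 and Foxf1a varied most between the 7 pools. Foxf2, a mesenchymal factor of the palate, gut and brain vessels, had a log2 signal of -0.70, -1.37, -2.51 and -0.87 in knockouts 1, 2, 3 and 7, against -2.66, -0.45, -3.49 and -6.68 in wild types 1, 2, 5 and 7. The wild type pools held both the highest value, in pool 2, and the lowest, in pool 7, where the probe was not well above background. The highest of the 7 pools was at least 19.1-fold above the lowest, with pool 7 set to a floor, the lowest signal on its array that was well above background. With every value that was not well above background raised in this way, the SD of Foxf2 over the 7 arrays was 1.61 on the log2 scale, that of the median gene was 0.23, and 47 of 24291 genes had a larger one. The knockout mean was -1.36 ± 0.82 (SD, n = 4) and the wild type mean -3.32 ± 2.58 (SD, n = 4), or -3.54 ± 3.11 (SD, n = 3) without wild type pool 1. The log2 fold change was 1.96 ± 1.14 (limma adjusted p = 0.735) over 8 arrays and 2.18 ± 1.32 (limma adjusted p = 0.572) over 7, with an interval from -0.92 to 5.28. Wild type pool 7 raised that last value and wild type pool 2 lowered it. The log2 fold change over 7 arrays was 1.52 with wild type pool 7 at its floor. It was 0.61 when that pool was also left out, and 3.72 when wild type pool 2 was left out instead.

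Foxf1a, needed for lateral plate mesoderm and its vessels, was dim. Its log2 signal was -3.90, -4.80, -5.89 and -3.89 in knockouts 1, 2, 3 and 7, against -2.15, -3.35, -6.01 and -6.84 in wild types 1, 2, 5 and 7. The processed signals behind these values were 69.8, 34.4, 19.2 and 59.5 in the knockouts, against 949, 88.1, 14.4 and 5.76 in the wild types. The probe was well above background in knockout pools 1, 2 and 7 and wild type pools 1 and 2, so it passed the filter through the knockout group alone. The call in wild type pool 1 carries little, since 87.5% of the 15181 probes dim on every other array got that call there. Wild type pool 2 was at least 5.45-fold above the floor of wild type pool 5. For Foxf1a limma gave a log2 fold change of -0.029 ± 1.02 (limma adjusted p = 0.988) over 8 arrays and 0.78 ± 0.87 (limma adjusted p = 0.759) over 7, with an interval from -1.27 to 2.83. It was 0.081 with the pools below background at their floors, 0.065 without wild type pool 7 as well, and 1.81 without wild type pool 2 in its place.

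Foxl1, a hedgehog target of gut mesenchyme, had a log2 signal of -1.92, -2.78, -1.97 and -2.68 in knockouts 1, 2, 3 and 7, against -1.09, -1.32, -2.82 and -3.56 in wild types 1, 2, 5 and 7. All 8 calls were above background. Wild type pools 1 and 2 were the 2 highest and wild type pools 5 and 7 the 2 lowest, with the knockout pools between them. The log2 fold change was -0.14 ± 0.57 (limma adjusted p = 0.895) over 8 arrays and 0.23 ± 0.52 (limma adjusted p = 0.883) over 7. Without wild type pool 7 as well it was -0.27, and without wild type pool 2 in its place it was 0.85.

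**Figure D2:**
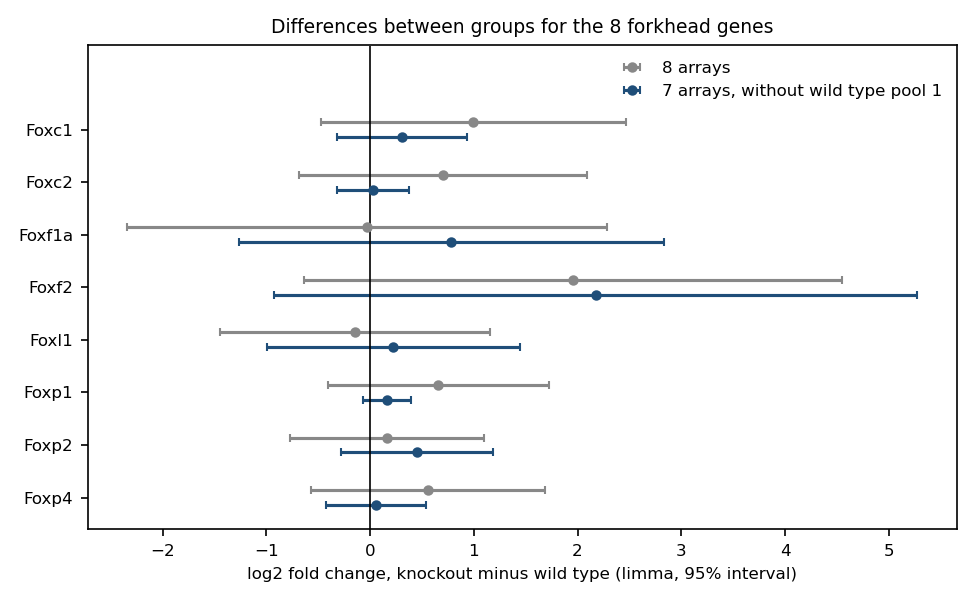
Log2 fold change, knockout minus wild type (horizontal axis), of the 8 forkhead genes with 95% intervals from limma, over 8 arrays (grey) and over 7 without wild type pool 1 (blue). All 16 intervals include 0, and that of Foxf2 reaches from -0.92 to 5.28 over 7 arrays.

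Over 7 pools the SD of the log2 signal was 0.12 for Foxp1, 0.27 for Foxp4 and 0.49 for Foxp2. Foxp1, a repressor needed in heart development, had a log2 signal at its stop codon probe of 4.03, 3.80, 4.05 and 3.94 in knockouts 1, 2, 3 and 7, against 1.81, 3.80, 3.85 and 3.73 in wild types 1, 2, 5 and 7. Apart from wild type pool 1, the pools lay within 1.25-fold of each other. Between the groups the log2 fold change was 0.66 ± 0.47 (limma adjusted p = 0.735) over 8 arrays and 0.16 ± 0.10 (limma adjusted p = 0.575) over 7, with an interval from -0.071 to 0.40. The spread probe gave 0.59 over 8 arrays and 0.070 over 7. The remaining Foxp1 probe (chr6:99112925-99112984) gave -0.43 and 0.30, so the 3 probes had different signs over 8 arrays and the same sign over 7. On that probe knockout pool 7 was the highest of the 7, at -1.66, and the other knockout pools ran from -2.77 to -2.35.

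Foxp2, known for its part in neural and lung development, was read by a probe at chr6:15391821-15391880. Its log2 signal was -1.63, -1.81, -1.94 and -1.57 in knockouts 1, 2, 3 and 7, against -1.03, -1.67, -1.90 and -3.005 in wild types 1, 2, 5 and 7. Wild type pool 7 stood below the rest. The log2 fold change was 0.16 ± 0.41 (limma adjusted p = 0.835) over 8 arrays and 0.45 ± 0.31 (limma adjusted p = 0.611) over 7, or 0.046 without wild type pool 7 as well. The spread Foxp2 probe gave -0.24 over 8 arrays and 0.32 over 7, and wild type pool 7 was again the lowest of its pools, at -3.60.

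Foxp4, the partner of Foxp1 and Foxp2 in endoderm and heart, was read by 3 probes, 2 of which overlap by 54 bases (chr17:48004713-48004772 and chr17:48004719-48004778). The second of the pair had a log2 signal of 3.98, 3.79, 4.28 and 3.63 in knockouts 1, 2, 3 and 7, against 1.86, 4.15, 3.92 and 3.51 in wild types 1, 2, 5 and 7. Apart from wild type pool 1, the groups covered the same stretch, with knockout pool 3 highest and wild type pool 7 lowest. Between groups, the log2 fold change was 0.56 ± 0.50 (limma adjusted p = 0.735) over 8 arrays and 0.058 ± 0.206 (limma adjusted p = 0.927) over 7, and turned to -0.062 without knockout pool 3 as well and to -0.12 without wild type pool 7 in its place. The overlapping probe, which shares its sequence with it, gave 0.57 and 0.030. The remaining probe, 80 bases away (chr17:48004573-48004632), gave -0.034 and 0.25.

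Wild type pool 1 moved the 13 probes in 2 directions. It was the lowest of the 8 pools on 6 probes (Foxc1, Foxc2, 2 of Foxp1 and 2 of Foxp4) and the highest on 6 (Foxf1a, Foxl1, both of Foxp2 and 1 each of Foxp1 and Foxp4). For Foxf2 it was neither. The log2 signals of the 13 probes ran from -2.66 to 1.86 on its array, against -6.84 to 4.28 on the other 7. Probes that were bright on the other wild type arrays were thus lower on it, and dim ones higher. The positive 8-array values of Foxc1, Foxc2, Foxp1 and Foxp4 were smaller when it was left out.

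**Figure D3:**
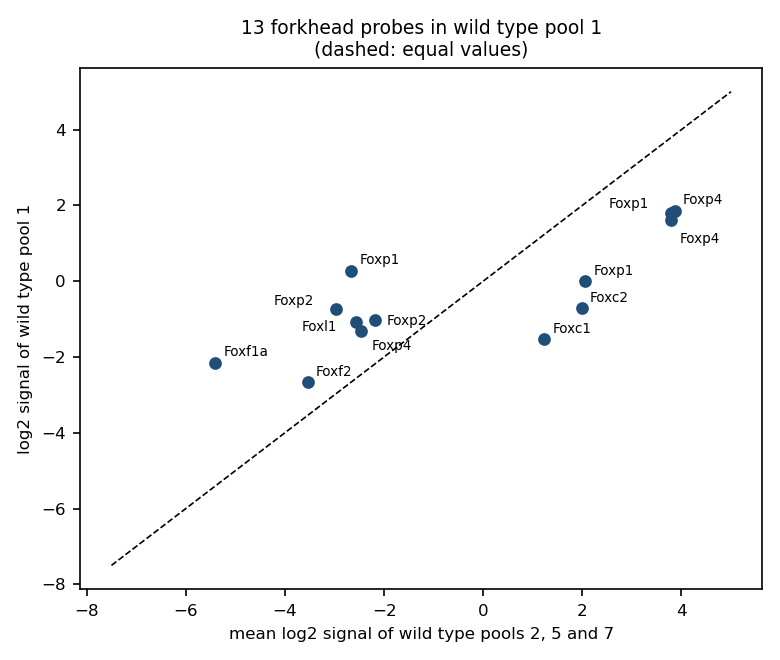
Log2 signal of the 13 forkhead probes in wild type pool 1 (vertical axis) against their mean in wild type pools 2, 5 and 7 (horizontal axis), with a dashed line of equal values. The 6 probes with a positive mean lie below the line and the 7 with a negative mean lie above it.

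Over the 7 other pools, Foxc1 and Foxf2, neighbours on chromosome 13, had nearly the same order of values. From high to low it was wild type 2, knockout 7, knockout 1, knockout 2, knockout 3, wild type 5 and wild type 7 for Foxc1, and Foxf2 differed in having knockout pools 1 and 7 exchanged. The order was noticed after the values were seen and is a description of 7 pools. It was not particular to these neighbours. In the values as measured, the forkhead gene Foxa1 and the hedgehog pathway gene Hhip had exactly the order of Foxc1. Gmds, which follows Foxc1 on chromosome 13, had another. The share of all genes with this order was not counted. For Foxf1a wild type pool 2 was also highest, but knockout pool 3 and wild type pools 5 and 7 were not well above background, so these 3 have no order. Foxc2 and Foxl1, which neighbour Foxf1a on chromosome 8, had other orders. In the values as measured, knockout pool 3 and wild type pools 5 and 7 were the 3 lowest for Foxc1, Foxf1a, Foxf2 and Foxp2, 4 of the 8 genes, beside 6.31% of all genes. These 3 pools are the lowest of the order seen in Foxc1 and Foxf2, so the count over the 8 genes is no test. The same held for 7 of 27 other forkhead genes, 5 of 16 hedgehog pathway genes and 5 of 20 Foxc-linked genes. It held for 2 of 7 genes of the list of heart field progenitors, Isl1 and Tbx1, which are also Foxc-linked. Of 16 mesenchymal genes linked to Foxf and Foxl1 it held for 1, and of 16 Foxp partners and linked genes for 2. Of the 6 forkhead genes above background in all 7 pools it held for 2, Foxc1 and Foxp2, beside 5.89% of all 20821 such genes. Among these it held for 3 of 17 other forkhead genes, 4 of 14 hedgehog genes and 5 of 20 Foxc-linked genes. It held for 0 of 13 genes linked to Foxf and Foxl1 and 0 of 14 Foxp partners and linked genes.

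The genes most like Foxf1a and Foxf2 over these 7 arrays were sought among 16538 genes with a symbol, by the root mean square difference of the log2 signals, each centred on its own mean. For Foxf2 the values as measured gave Gsc (0.546), a homeobox gene of head and pharyngeal mesenchyme, and Colec10 (0.596), a secreted lectin. In wild type pool 7 neither Foxf2 nor these 2 genes were well above background. With such values at the floor, Gsc ranked 5 and Colec10 ranked 11, and the nearest were Gli1 (0.332), the transcription factor that reports hedgehog activity, and Hhip (0.363), which binds the hedgehog ligand. For Foxf1a the values as measured gave Hhip (0.313) and the forkhead gene Foxq1 (0.329). With 3 of its 7 pools at the floor Hhip ranked 9975, so the likeness of Foxf1a to Hhip rested on values below background. Foxq1 ranked 2, but it too was not well above background in wild type pools 5 and 7. Both genes were there set to the same floors, so this rank cannot show a likeness in those pools. Hhip, above background in all 7 pools, had a log2 signal of -0.96, -0.99, -2.10 and -0.56 in knockouts 1, 2, 3 and 7, against 0.21, -2.70 and -3.77 in wild types 2, 5 and 7. Wild type pool 2 was its highest and wild type pool 7 its lowest, as for Foxf2.

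**Figure D4:**
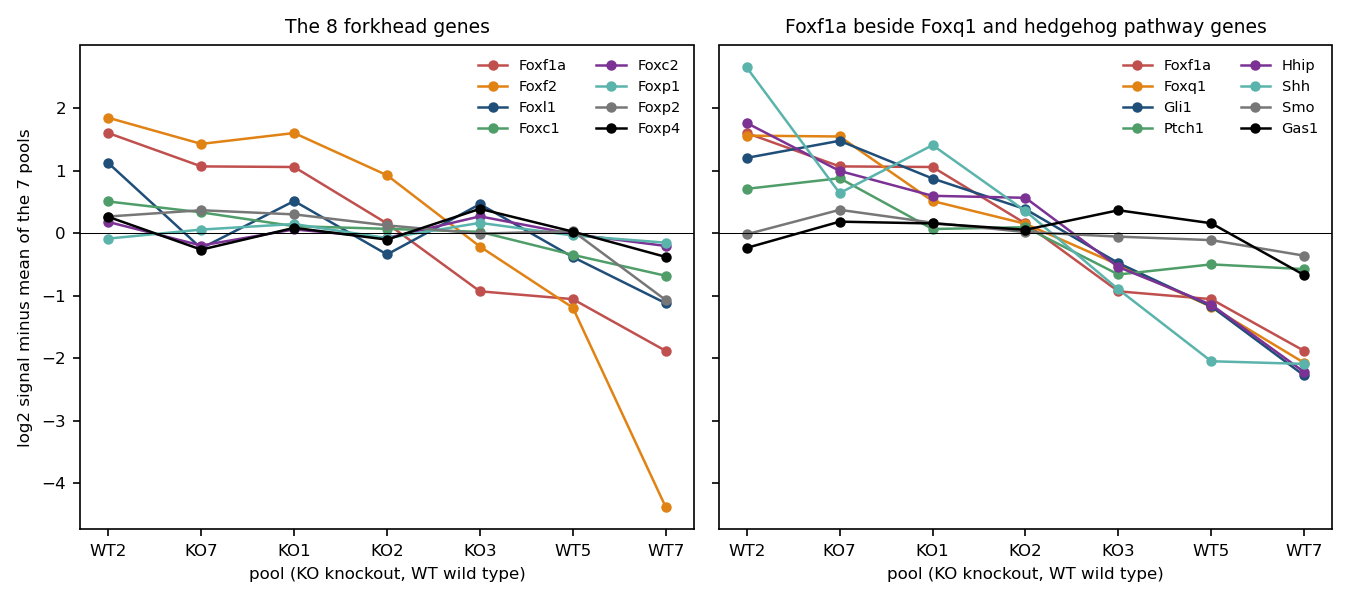
Log2 signal minus the mean of 7 pools (vertical axis) for the 8 forkhead genes (left) and for Foxf1a beside Foxq1 and hedgehog pathway genes (right), with pools in the order of Foxc1 (horizontal axis; wild type pool 1 left out). Foxf2, drawn in the left panel only, is highest in wild type pool 2 and lowest in wild type pool 7. In wild type pool 7 neither Foxf2 nor Foxf1a is well above background (Foxf1a also not in knockout pool 3 and wild type pool 5). Foxc2, Foxp1 and Foxp4 stay near 0, and lines join pools only to guide the eye.

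The hedgehog pathway was read beside the Foxf genes. All 16 of its genes passed the filter and none passed the test in either fit. Over 8 arrays 12 were positive and 4 negative, with a median log2 fold change of 0.45, and over 7 arrays again 12 and 4, with a median of 0.29. Gli1 had a log2 signal of 1.85, 1.36, 0.50 and 2.45 in knockouts 1, 2, 3 and 7, against 0.76, 2.18, -0.20 and -1.30 in wild types 1, 2, 5 and 7. Apart from wild type pool 1, knockout pool 3 and wild type pools 5 and 7 were its lowest. Its log2 fold change was 1.18 ± 0.73 over 8 arrays (limma adjusted p = 0.735) and 1.31 ± 0.83 over 7 (limma adjusted p = 0.588). The 2 genes of the list with the smallest unadjusted p over 8 arrays were Gas1, a co-receptor for the ligand, at 0.80 ± 0.40, and Smo, the signal-transducing receptor, at 0.81 ± 0.49. They were at 0.44 ± 0.20 and 0.29 ± 0.14 over 7 arrays. Shh, the ligand made by pharyngeal endoderm, was above background in 3 knockout pools and, apart from wild type pool 1, in 1 wild type pool.

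Some markers of other cell types moved with these orders. Of 8 markers of pharyngeal endoderm and epithelium, 7 passed the filter and Pax1 did not. Their mean centred log2 signal was 0.56, 0.24, -1.23 and 1.22 in knockouts 1, 2, 3 and 7, against 1.16, 1.49, -1.10 and -1.18 in wild types 1, 2, 5 and 7. In the values as measured, for 5 of the 7 (Foxa2, Epcam, Cdh1, Shh and Sox2) knockout pool 3 and wild type pools 5 and 7 were the 3 lowest of the 7 pools, but not for the keratins Krt8 and Krt18. Over all genes this held for 6.31%. Of the 4 markers above background in all 7 pools it held for 2, Foxa2 and Cdh1, beside 5.89% of all such genes. The summed signal of the 7 markers, relative to the 75th percentile and carried mostly by the keratins, ran from 30.9 to 51.9 in knockout pools and from 21.8 to 62.7 in wild type pools. Foxa2 and Cdh1 were above background on all 7 arrays other than that of wild type pool 1 and Sox2 on 6, while Epcam was on 5 and Shh on 4. Epcam was not above background in knockout pool 3 and wild type pool 7, nor Shh in these and wild type pool 5. The erythroid list showed the same 3 lowest pools for 5 of its 6 genes, and its sum ran from 926 to 1462 in knockout pools and from 754 to 1396 in wild type pools 2, 5 and 7, with 208 in wild type pool 1. No gene of the cardiomyocyte, cushion mesenchyme, endothelial or smooth muscle lists had these 3 lowest pools. Nor did any of the lung mesenchyme, epicardial, leukocyte or neuronal lists, and 1 of 5 neural crest genes did. The part of such cells in the Foxf1a, Foxf2 and Foxc1 values was not tested. All 8 cardiomyocyte, 8 cushion and 5 smooth muscle genes passed the filter, as the outflow tract label would have it, but so did all genes of the epicardial, erythroid, endothelial and lung mesenchyme lists, so the filter does not tell these tissues apart.

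The other forkhead genes were 36 with a probe, of which 27 passed the filter over 8 arrays and 25 over 7. None passed the test. They were 14 positive and 13 negative over 8 arrays, with a median log2 fold change of 0.10, and 16 and 9 over 7, with a median of 0.23. Those with the smallest unadjusted p over 8 arrays were Foxd2, a gene of head and kidney mesenchyme, at 1.83 ± 0.82, and Foxo6, of the insulin-responsive group, at 0.65 ± 0.31. Over 7 arrays they were at 2.10 ± 0.90 and 0.48 ± 0.22. Foxq1, the neighbour of Foxf2, was at 0.22 ± 0.99 and 0.99 ± 0.87, and was above background in all 4 knockout pools but, apart from wild type pool 1, in only 1 wild type pool. Of 6 genes listed in or near the clusters 5 passed the filter, and Fendrr had no probe. Fbxo31, of a ubiquitin ligase, and Mthfsd, which lies between Foxf1a and Foxc2, were at 0.65 ± 0.48 and 0.53 ± 0.45 over 8 arrays and at 0.13 ± 0.09 and 0.067 ± 0.127 over 7. Fbxo31 was the cluster neighbour whose groups did not overlap, in both fits. The same held for the forkhead gene Foxk2 and for Ctbp1 of the list of Foxp partners. Over all genes it held for 5.49% over 8 arrays and 11.4% over 7.

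Genes linked to the Foxc, Foxf and Foxp groups in earlier work gave no call either. Of 20 Foxc-linked genes, all measured, 15 were positive and 5 negative over 8 arrays (median log2 fold change 0.31), and 9 and 11 over 7 (median -0.048). Hey1, a Notch target, was at 0.95 ± 0.51 and 0.43 ± 0.19 in the respective fits, and Isl1, a factor of cardiac progenitors, at 0.69 ± 0.39 and 0.53 ± 0.36. Of 17 mesenchymal genes linked to Foxf and Foxl1, Fendrr had no probe and 16 passed the filter, with 8 in each direction over 8 arrays (median 0.11). Over 7 arrays 15 passed, with 8 positive and 7 negative (median 0.014). Hand2, a factor of outflow and limb mesenchyme, was at 0.90 ± 0.52 and 0.36 ± 0.18, and the ligand Bmp4 at 0.73 ± 0.49 and 0.21 ± 0.13. Of 19 Foxp partners and linked genes, 16 passed, with 15 positive over 8 arrays (median 0.49), and 15 over 7, with 10 positive (median 0.068). The corepressors Ctbp1 and Hdac1 were at 0.80 ± 0.47 and 0.82 ± 0.52 over 8 arrays and at 0.30 ± 0.11 and 0.26 ± 0.14 over 7.

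The promoters of Foxf2 and Foxc1 are shown because these neighbours had nearly the same pool order, which was not particular to them. Each stretch is the 250 bases before the RefSeq start (GRCm38.p6), on the plus strand, at chr13:31625566-31625815 for Foxf2 and chr13:31806396-31806645 for Foxc1. A promoter sequence was available for 4 of the 8 genes (Foxc1, Foxf2, Foxp1 and Foxp4), in 6 stretches, and not for the others.
Foxf2: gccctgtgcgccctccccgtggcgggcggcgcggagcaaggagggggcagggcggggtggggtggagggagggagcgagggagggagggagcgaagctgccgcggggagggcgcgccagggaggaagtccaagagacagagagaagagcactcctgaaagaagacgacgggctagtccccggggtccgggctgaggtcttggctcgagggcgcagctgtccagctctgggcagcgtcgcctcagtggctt
Foxc1: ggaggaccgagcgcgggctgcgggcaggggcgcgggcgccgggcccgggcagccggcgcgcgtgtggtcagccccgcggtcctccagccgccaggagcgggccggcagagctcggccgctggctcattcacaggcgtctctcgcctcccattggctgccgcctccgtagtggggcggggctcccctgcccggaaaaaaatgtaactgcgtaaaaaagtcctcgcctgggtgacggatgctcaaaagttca
Their GC content was 71.6% and 70.8%, against a median of 52.4% over 32851 such stretches. A forkhead core (TGTTTA, or TAAACA on the other strand), which 12% of all stretches held, was in neither. The retinoic acid receptor motif AGGTCA (or TGACCT), held by 14%, and the GLI motif TGGGTGGTC (or GACCACCCA), held by 0.225%, were in neither. All 3 stretches of Foxp1 held the forkhead core, and that of Foxp4 held none of the 3 motifs. No motif holds the letters of another, and a match or its lack describes only these letters.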

How the data were processed

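RNA (50 ng, integrity number above 8) from 8 pools was labelled with Cy3, per the labels' protocols. The deposited scanner files hold intensity values from Agilent Feature Extraction 10.7.3.1, per the file headers: processed signals with background subtracted, linear and not scaled between arrays, with flags for spots above background. The deposited matrix held the same intensity values to within 0.497%. The file of knockout pool 1 held 3 significant digits.

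Spots of the same probe were averaged among the 59305 that were not controls. A probe stayed in (33404 did) if 3 or more arrays of either group called it well above background. Then log2 was taken and that of each array's 75th percentile subtracted. The kept probe with the highest mean stood for its gene. Symbols came through accession for 26056 probes. Groups were compared with limma 3.58.1 in R 4.3.3 (lmFit, eBayes, two-sided). The same fit was also run on simulated data that took their spread from the real residuals. The number of arrays limits the precision.

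Members and lists were chosen with earlier results of these data known. Named genes were the members, Aldh1a2, the 2 genes of each pathway list with the smallest unadjusted p over 8 arrays, the 2 genes most like each of the 2 most variable members, and other listed genes. Alternatives were the scaling, background, matrix, filter, probe choice, eBayes, array weights, block and left-out pools. Floors for dim values, and those that changed another choice besides leaving out wild type pool 1, were added after seeing the data.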

Additional observations from a re-analysis of the deposited data

Results flagged for a closer look

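Of 28 groups of 4 pools examined, 5 had a pool far from the other 3 by Dixon's test at 95%, and chance alone gives about 1 in 20. Aldh1a2 in knockout pool 7 was at 0.059 on the log2 scale, below the other knockout pools at 1.87 to 2.02. The remaining 4 were all wild type pool 1. Foxc2 was at -0.71 there, against 1.80 to 2.18 in the other wild type pools. The Foxp1 probe with the stop codon was at 1.81, against 3.73 to 3.85, and the spread Foxp1 probe at -0.0070, against 1.93 to 2.14. The remaining Foxp1 probe lay the other way, at 0.28 against -2.85 to -2.55.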

How the results depend on the processing

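No forkhead gene passed the threshold under any alternative run. All genes past it numbered 0 over 8 arrays, 8 with array weights and 22 with array median scaling without wild type pool 1. Over the 7 arrays they numbered 0, and leaving out a further pool gave 1 without knockout pool 7, 8 without wild type pool 5 and 0 without any of the other 5. Foxc1 and Foxf2 were positive in every alternative run, but Foxf2 was 1.09 with normexp, and 0.94 with normexp without wild type pool 1. Foxf1a and Foxf2 have no value under the filter of all 8 arrays. Foxf1a (-0.029) turned to 0.51 with array median scaling, 1.10 with quantile normalization, 0.019 with matrix values and 0.86 with array weights, and leaving out 1 pool gave -0.78 to 0.78 in the 5 cases run; without knockout pool 1, 2 or 7 it failed the filter. Foxl1 (-0.14) turned to 0.40, 0.45 and 0.25 with array median scaling, quantile normalization and array weights. Leaving out 1 pool gave Foxl1 -0.60 to 0.23. Foxp2 (0.16) turned to -0.037 with the mean of its probes, and leaving out 1 pool gave -0.20 to 0.45. Without wild type pool 1, Foxf1a and Foxl1 were at 0.78 and 0.23 with single probes, 0.80 and 0.099 with quantile normalization and 0.58 and 0.020 with array median scaling, and -0.052 and 0.061 with normexp. There Foxc2 turned to -0.0021 with quantile normalization, and Foxc2, Foxp1 and Foxp4 to -0.18, -0.042 and -0.15 with array median scaling. The cause was not tested. The main fit did not pair samples by pool number. Deviations of same-numbered pools from their group means correlated at -0.15, 0.32 and -0.41 for pools 1, 2 and 7. The wild type means held pool 1, whose array stood apart, so these values do not settle whether the numbers pair the samples. With pool number as a block, 0 genes passed and Foxf2 was at 2.28. Signal over background limits Foxf1a in 3 of the 7 other pools and Foxf2 in 1.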
